A study of Mus musculus with 12 samples.

Results

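The lysosomal cathepsins are 9 genes that encode proteases of the lysosome: Ctsa, Ctsb, Ctsc, Ctsd, Ctsh, Ctsk, Ctsl, Ctss and Ctsz. They were picked out by gene symbol, with no threshold on their values, from the 24421 symbols in the kidney RNA-seq data. For each the row with the largest count over all libraries was taken. The 12 libraries came from male C57BL/6 mice at 6 weeks old, in 4 groups of 3. WT baseline and Tet2-/- baseline kidneys came from healthy controls with no named operation. WT IR and Tet2-/- IR kidneys were taken 24 h after ischemia-reperfusion (IR), in which the right renal pedicle had been clamped for 60 min and the left kidney removed. Tet2-/- mice, bred from heterozygous pairs that the study's methods give as C57BL/6J, carry a knockout of Tet2, a dioxygenase that oxidizes 5-methylcytosine in DNA. The comparison of IR with baseline therefore also holds the anesthesia, the surgery and the loss of the other kidney, and these cannot be told apart. The labels give each library as a kidney sample of its own without naming the animal, and the p values measure the spread between these libraries.

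Cathepsins are made as inactive precursors, carried to the lysosome mostly by mannose 6-phosphate receptors and activated there at low pH. Ctsb, Ctsc, Ctsh, Ctsk, Ctsl, Ctss and Ctsz are cysteine proteases, Ctsd is an aspartic protease, and Ctsa is a serine carboxypeptidase that also shields other lysosomal enzymes. In the kidney the proximal tubule cells, which take up filtered protein and break it down in lysosomes, are a main site of Ctsb, Ctsd and Ctsl. Ctss and Ctsc are known mainly from myeloid cells, Ctsk from osteoclasts and fibroblasts. Cystatins and stefins bind cysteine cathepsins and block them, while Ctsd is not their target.

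Total counts per library ran from 51007362 to 107969879. Tet2 was at 6.25 to 9.15 FPKM (fragments per kilobase of transcript, scaled to the depth of the library) in WT baseline, 9.24 to 16.6 in Tet2-/- baseline, 3.85 to 9.34 in WT IR and 1.76 to 3.20 in Tet2-/- IR libraries. The transcript was thus not lower in the baseline libraries labelled Tet2-/-, which all lay above the WT baseline libraries (log2 fold change 0.76, SE 0.24, adjusted p = 0.32). Every direction between genotypes is therefore given by these labels. After IR its log2 fold change was -1.28 (SE 0.36, adjusted p = 0.069), with no overlap of the groups. Of 2 defining markers of the proximal tubule, Slc34a1 (the sodium-phosphate cotransporter) was between 188 and 1811 FPKM over the 12 libraries and Slc5a2 (a glucose cotransporter) between 7.48, in WT IR replicate 1, and 159. Replicate 3 of Tet2-/- IR stood apart from replicates 1 and 2. Its 8 adipocyte markers summed to 608 FPKM against 116 and 82.2, and its 6 markers of the thick ascending limb and distal tubule summed to 418 FPKM against 2177 and 2700. Counts of cathepsins and of list genes that rest on the Tet2-/- IR group are therefore also given without that library, a choice made for the lists after seeing the data. Without it, 1.59% of all genes tested were higher and 3.61% lower between genotypes after IR, and 23.4% rose and 21.0% fell with IR in Tet2-/- kidneys, by adjusted p. Of the genes outside the cathepsins that are named with a passing value in these comparisons, Ctsf, Ctla2b and Hgsnat between genotypes and Lgmn with IR in Tet2-/- kidneys no longer passed without it. Adipocyte markers were also raised in WT baseline replicate 3, at 277 FPKM, against 17.0 to 135 in the remaining 10 libraries.

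At baseline the 9 cathepsins fell into an abundant set of 6 genes and a scarce set of 3. In WT baseline kidneys Ctsd led with 242 ± 33.8 FPKM (SD, n = 3), followed by Ctsl with 101 ± 10.7, Ctsb with 93.0 ± 14.6, Ctsz with 92.8 ± 2.72, Ctsh with 81.1 ± 2.78 and Ctsa with 64.5 ± 8.03. Ctss was at 3.56 ± 1.65, Ctsc at 1.70 ± 0.61 and Ctsk at 1.5 ± 0.44 FPKM. The ranges of Ctsl and Ctsb overlapped, as did those of Ctsb and Ctsz and those of the 3 scarce genes in turn. In Tet2-/- baseline kidneys the same 6 genes were above the same 3, and Ctsd was again first at 205 ± 22.8 FPKM. The order rests on the transcript lengths of the deposited table, which gave Ctsc 7457 bases and Ctsl 3499 bases, while the longest annotated transcripts hold 2493 and 1971 bases. With FPKM summed over all transcripts of a symbol, Ctsh moved to rank 2 and Ctsa to rank 3 in WT baseline, as both have a second row in the table that counts mostly the same reads again.

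**Figure D1:**
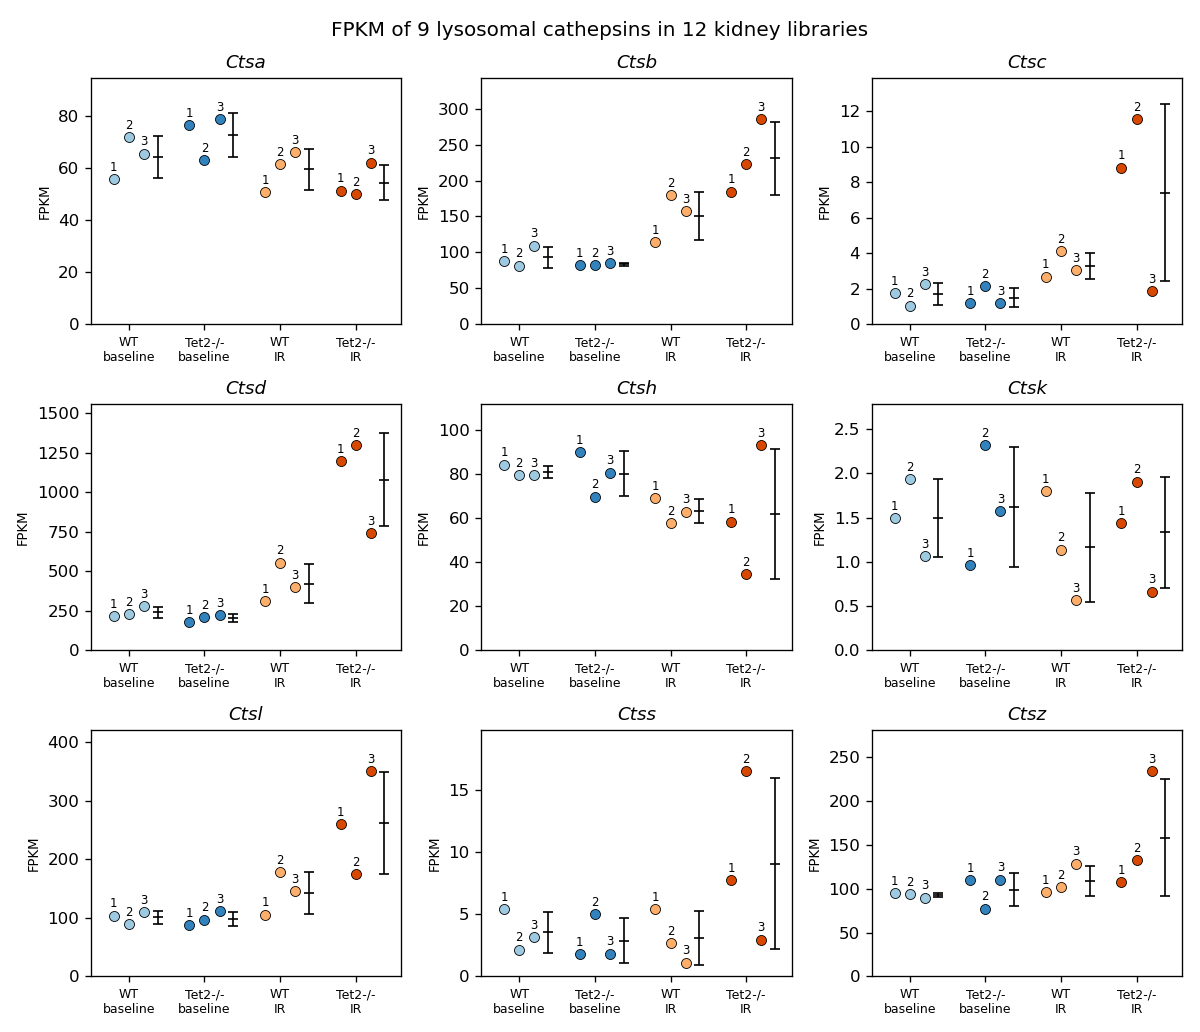
FPKM (vertical axes, linear, from 0) of the 9 cathepsins in each library, by group, with the replicate number above each point and the group mean ± SD (n = 3) as a bar beside it. Ctsd reached 744 to 1298 FPKM in the 3 Tet2-/- IR libraries and stayed at 555 or below in the other groups. Replicate 3 of Tet2-/- IR lay apart from replicates 1 and 2 for Ctsc, Ctsh and Ctsz, and was the lowest of its group for Ctss.

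Genotype made no detectable difference to any cathepsin at baseline, IR in WT kidneys brought changes that did not pass the test over all genes, and IR in Tet2-/- kidneys raised 4 of 9 cathepsins more than 2-fold. Between genotypes at baseline, edgeR's quasi-likelihood test passed 0 of 9 cathepsins at an adjusted p under 0.05, and none had an unadjusted p under 0.05. Of 16086 genes tested there, 0.0124% passed as higher and 0% as lower. The log2 fold changes of the 9 genes ran from -0.21 for Ctss to 0.27 for Ctsa, and the widest 95% interval, that of Ctss, ran from -1.34 to 0.92. DESeq2 and limma also passed 0 of 9.

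After IR, 1 of 9 cathepsins, Ctsd, was called higher in Tet2-/- than in WT kidneys and 0 were called lower, where a call means an adjusted p under 0.05 and a change of more than 2-fold. Of 16186 genes tested, 2.3% were called higher and 3.85% lower. By adjusted p alone the shares were 3.51% and 6.17%, and the cathepsin counts were again 1 and 0. The median log2 fold change of the 9 was 0.53, and that of all genes tested was 0.04. With replicate 3 of Tet2-/- IR left out, Ctsc and Ctsd were called higher, 0 of 9 were called lower, and the median of the 9 was 0.39.

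From baseline to IR in WT kidneys, 0 of 9 cathepsins passed in either direction with edgeR, and 4 had an unadjusted p under 0.05. Of 16015 genes tested, 1.88% passed as higher and 1.14% as lower, and 1.46% and 0.887% did so with more than a 2-fold change. DESeq2 passed Ctsc (adjusted p = 0.0457), Ctsd (0.027) and Ctsh (0.0433), all with less than a 2-fold change, and limma passed 0 of 9. From baseline to IR in Tet2-/- kidneys, Ctsb, Ctsc, Ctsd and Ctsl were called higher and 0 of 9 were called lower. When Tet2-/- IR replicate 3 was left out, the genes called higher were Ctsc, Ctsd and Ctss, and Ctsh was called lower. Without Tet2-/- baseline replicate 1 they were Ctsb and Ctsd, and without Tet2-/- baseline replicate 2 they were Ctsb, Ctsc and Ctsd. Without Tet2-/- baseline replicate 3, and without Tet2-/- IR replicate 1 or 2, they were Ctsb, Ctsd and Ctsl. The 4 of 9 called higher with all libraries stand against 12.7% of 16358 genes called higher and 11.6% called lower. By adjusted p alone 4 cathepsins were higher and 1, Ctsa, was lower, against 22.9% and 20.3% of all genes. The median log2 fold change of the 9 was 1.17, against 0.04 over all genes tested, and it was 0.85 without Tet2-/- IR replicate 3. In the genotype by IR interaction, which asks whether the IR effect differed between the genotypes, Ctsd alone passed among the 9 cathepsins, as higher, against 3.78% of 16741 genes higher and 5.38% lower.

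**Figure D2:**
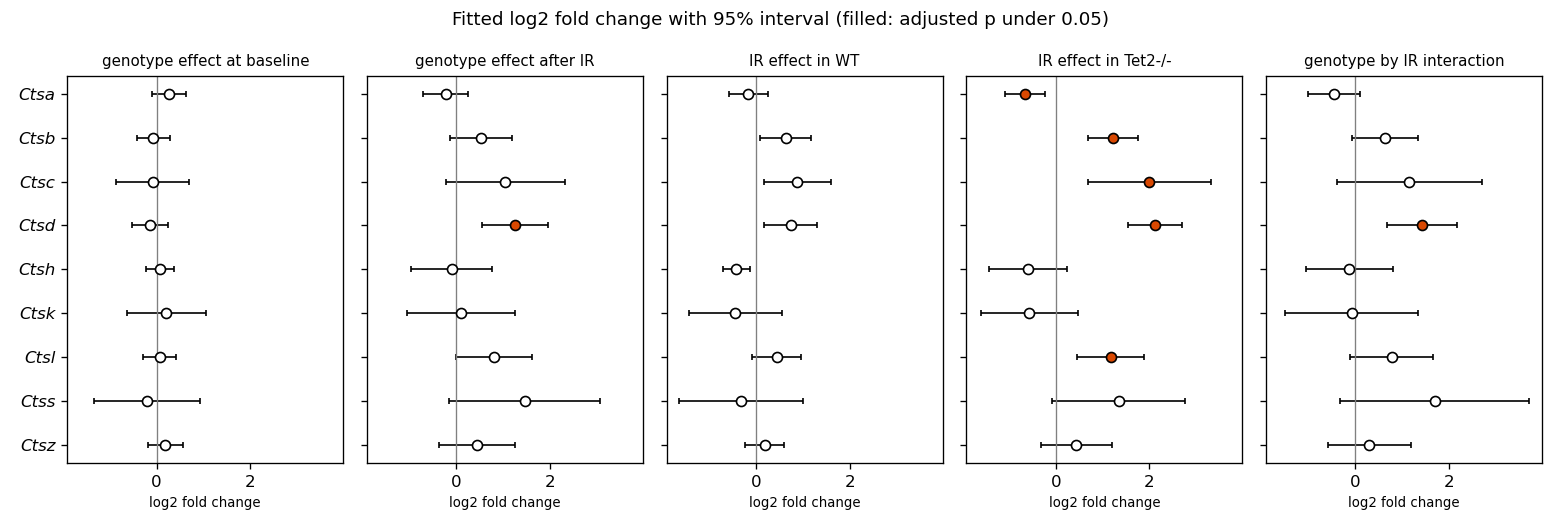
Log2 fold change (horizontal axes) of each cathepsin in the 5 comparisons, with the 95% interval as a bar, and filled points where the adjusted p was under 0.05. Filled points are Ctsd after IR (1.25), Ctsa, Ctsb, Ctsc, Ctsd and Ctsl for IR in Tet2-/- kidneys (-0.67 to 2.12), and Ctsd in the interaction (1.43).

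Ctsd, the main aspartic protease of the lysosome, was the cathepsin that passed in 3 of the 5 comparisons. Its gene lies on chromosome 7 of mm9 (149561821 to 149573775, minus strand). Its level was 215, 231 and 280 FPKM in WT baseline replicates 1, 2 and 3 and 180, 210 and 225 in Tet2-/- baseline replicates. After IR it was 310, 555 and 402 FPKM in WT kidneys and 1199, 1298 and 744 in Tet2-/- kidneys. All IR libraries lay above all baseline libraries, and all Tet2-/- IR libraries lay above all WT IR libraries. Within Tet2-/- kidneys Ctsd rose 4.36-fold with IR (log2 fold change 2.12, SE 0.25, adjusted p = 0.000682). Within WT kidneys the difference was 1.67-fold and did not pass (log2 fold change 0.74, SE 0.24, adjusted p = 0.142). The interaction gave a log2 difference of 1.43 between these effects (SE 0.34, adjusted p = 0.0291).

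After IR Ctsd was 2.37-fold higher in Tet2-/- than in WT kidneys (log2 fold change 1.25, SE 0.30, adjusted p = 0.0465), a value close to the threshold of 0.05. Leaving out any library but Tet2-/- IR replicate 3 (adjusted p = 0.0495) ended this call. The adjusted p was then 0.117 and 0.0965 without Tet2-/- IR replicates 1 and 2, and 0.148, 0.0651 and 0.138 without WT IR replicates 1, 2 and 3, at log2 fold changes of 1.05 to 1.43. The interaction passed without Tet2-/- IR replicate 3 (0.0171), WT IR replicate 2 (0.0153) and WT baseline replicates 1 (0.0434) and 2 (0.0481). It was at 0.0586 and 0.0531 without Tet2-/- IR replicates 1 and 2, at 0.0605 and 0.0612 without WT IR replicates 1 and 3, and at 0.0621 without WT baseline replicate 3. Without Tet2-/- baseline replicates 1, 2 and 3 it was at 0.0697, 0.0654 and 0.0562. The rise within Tet2-/- kidneys passed without each of the 6 libraries in turn, at log2 fold changes of 2.01 to 2.29.

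The share of Ctsd in the summed FPKM of the 9 genes followed the same order. It was 28.6% to 37.8% over the 6 baseline libraries and 41.0%, 48.6% and 41.5% in WT IR. Tet2-/- IR replicate 1 gave 63.8%, replicate 2 gave 66.8% and replicate 3 gave 41.9%. Replicate 3 thus lay within the WT IR range in this share, although its summed FPKM of 1774 was close to the 1879 and 1943 of the other two and exceeded the 756 to 1141 found for WT IR. In replicate 3, Ctsl, Ctsb and Ctsz took 19.8%, 16.1% and 13.2% of the sum.

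Ctsb and Ctsl, cysteine proteases of broad specificity, rose with IR in Tet2-/- kidneys. Ctsb (chromosome 14, 63741299 to 63764760, plus strand) was at 88.1, 81.5 and 110 FPKM in WT baseline, 82.1, 82.3 and 85.5 in Tet2-/- baseline, 114, 179 and 157 in WT IR and 184, 223 and 285 in Tet2-/- IR. The 3 Tet2-/- IR libraries lay above the other 9. The rise within Tet2-/- kidneys was 2.33-fold (log2 fold change 1.22, SE 0.23, adjusted p = 0.0047) and passed without each library in turn. Without Tet2-/- IR replicate 3 it was under 2-fold (log2 fold change 0.97, adjusted p = 0.00365). Within WT kidneys the log2 fold change was 0.63 (SE 0.23, adjusted p = 0.166), with groups that did not overlap in FPKM but did after scaling by the trimmed mean of M values (TMM). Exons of Ctsb share 769 bases with Fdft1, a gene of cholesterol synthesis on the opposite strand at 5.33 to 10.8 FPKM, and no source used here gives the strand setting of the counting.

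Ctsl (chromosome 13, 64463198 to 64471828, minus strand) was at 104, 89.2 and 110 FPKM in WT baseline, 88.0, 96.9 and 112 in Tet2-/- baseline, 106, 178 and 146 in WT IR and 261, 175 and 351 in Tet2-/- IR. Its groups after IR overlapped by the single value of 175 FPKM. The rise within Tet2-/- kidneys was 2.25-fold (log2 fold change 1.17, SE 0.31, adjusted p = 0.0182). It did not pass without Tet2-/- baseline replicate 1 (adjusted p = 0.0711) or replicate 2 (0.0638), and it was under 2-fold without Tet2-/- IR replicate 3 (log2 fold change 0.85, adjusted p = 0.0334). The difference between genotypes after IR was 0.80 on the log2 scale (SE 0.35, adjusted p = 0.179), and the interaction was 0.77 (SE 0.40, adjusted p = 0.237). These values were 0.47 (adjusted p = 0.372) and 0.45 (adjusted p = 0.425) without Tet2-/- IR replicate 3.

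Ctsz and Ctsh, which trim peptides from their ends, did not pass in any of the 5 comparisons with edgeR and all libraries. Ctsz (chromosome 2, 174252995 to 174264540, minus strand) was at 89.7 to 94.7 FPKM in WT baseline and 77.2 to 110 in Tet2-/- baseline. After IR it was at 96.3, 102 and 129 FPKM in WT and 108, 133 and 234 in Tet2-/- kidneys. The fitted change within Tet2-/- kidneys was 0.44 on the log2 scale (SE 0.33, adjusted p = 0.31) and turned to -0.04 without replicate 3. Ctsh (chromosome 9, 89949105 to 89970933, plus strand) was at 84.3, 79.4 and 79.6 FPKM in WT baseline and 69.0, 57.8 and 62.9 in WT IR, so that the WT groups did not overlap. That difference was -0.42 on the log2 scale (SE 0.12, adjusted p = 0.113 with edgeR), and it passed with DESeq2 (-0.41, adjusted p = 0.0433). Ctsh was at 90.0, 69.7 and 80.6 FPKM in Tet2-/- baseline and 58.4, 34.5 and 93.0 in Tet2-/- IR, with replicate 3 the highest of all 12 libraries. Without that replicate Ctsh was lower by more than 2-fold after IR (log2 fold change -1.07, adjusted p = 0.0203), and with it the value was -0.60 (SE 0.36, adjusted p = 0.216). With the replicate number as a block it was -0.74 (adjusted p = 0.0469).

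Ctsc, which activates the granule serine proteases of neutrophils, mast cells and cytotoxic lymphocytes, rose with IR in Tet2-/- kidneys. Its gene lies on chromosome 7 (95426595 to 95464371, plus strand). It was at 1.77, 1.05 and 2.26 FPKM in WT baseline and 1.2, 2.14 and 1.18 in Tet2-/- baseline. After IR it was at 2.68, 4.11 and 3.05 FPKM in WT and 8.82, 11.5 and 1.89 in Tet2-/- kidneys. The WT IR libraries lay above the WT baseline libraries, and Tet2-/- IR replicate 3 lay within the baseline range. The fitted rise within Tet2-/- kidneys was 4-fold (log2 fold change 2.0, SE 0.57, adjusted p = 0.0243), and without replicate 3 the log2 fold change was 2.43 (adjusted p = 0.000916). It did not pass without Tet2-/- IR replicate 1 (0.0661) or 2 (0.0655), or without Tet2-/- baseline replicate 1 (0.0869) or 3 (0.0792). Between genotypes after IR the log2 fold change was 1.04 (SE 0.54, adjusted p = 0.251), and without Tet2-/- IR replicate 3 it was 1.48 and passed (adjusted p = 0.0349).

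Ctss, which cuts the invariant chain of major histocompatibility complex class II in antigen-presenting cells, was at 5.38, 2.15 and 3.15 FPKM in WT baseline and 1.81, 4.99 and 1.84 in Tet2-/- baseline. After IR it was at 5.39, 2.69 and 1.10 FPKM in WT and 7.73, 16.5 and 2.96 in Tet2-/- kidneys. Replicates 1 and 2 of Tet2-/- IR were the highest of the 12 libraries, and replicate 3 lay within the range of every other group. The gene lies on chromosome 3 (95330708 to 95360327, plus strand). The change within Tet2-/- kidneys did not pass (log2 fold change 1.34, SE 0.61, adjusted p = 0.113), and without replicate 3 it did (1.73, adjusted p = 0.0291). It also passed with DESeq2 (1.32, adjusted p = 0.0401) and with the replicate number as a block (1.25, adjusted p = 0.0106). Between genotypes after IR the value was 1.46 (SE 0.68, adjusted p = 0.211), with a 95% interval from -0.15 to 3.06. With a library left out it ran from 0.78 to 2.12 and did not pass. Ctsk, a collagen-degrading protease, lies on the same chromosome (95303132 to 95313309, plus strand), stayed between 0.57 and 2.32 FPKM in all 12 libraries and did not pass in any comparison.

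Ctsa, the carboxypeptidase also called protective protein, was the 1 of the 9 cathepsins that fell with edgeR and all libraries. It was at 76.7, 63.1 and 78.9 FPKM in Tet2-/- baseline and 51.4, 50.1 and 62.2 in Tet2-/- IR libraries, which did not overlap. The difference was -0.67 on the log2 scale (SE 0.18, adjusted p = 0.022), less than 2-fold. It passed without Tet2-/- IR replicate 3 (adjusted p = 0.0089) and Tet2-/- baseline replicate 2. It did not pass without Tet2-/- IR replicates 1 (0.0695) and 2 (0.0605) or Tet2-/- baseline replicates 1 (0.0674) and 3 (0.0849). In WT kidneys Ctsa was at 56.0, 71.9 and 65.7 FPKM at baseline and 51.0, 61.7 and 66.2 after IR, and the ranges overlapped. The gene lies on chromosome 2 (164659273 to 164666532, plus strand), and its exons share 495 bases with Pltp, a phospholipid transfer protein gene on the opposite strand. Pltp fell in the same comparison (log2 fold change -1.28, SE 0.21, adjusted p = 0.00252), from 8.41 to 4.13 FPKM. Without a stated strand setting, reads in the shared stretch cannot be assigned to either gene.

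**Figure D3:**
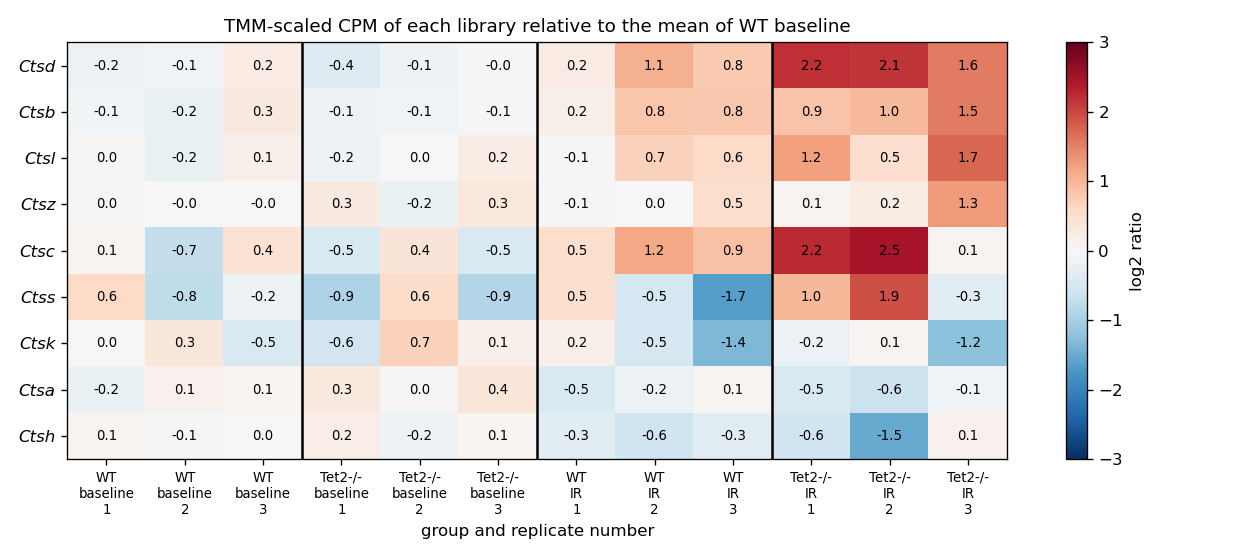
Log2 ratio of the TMM-scaled CPM (counts relative to library depth) of each cathepsin in each library (columns) to the mean of the 3 WT baseline libraries, from blue (lower) to red (higher). Ctsd was above that mean in all 6 IR libraries, and Tet2-/- IR replicate 3 lacked the increase of Ctsc and Ctss that replicates 1 and 2 had.

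The cathepsins did not vary as a single block over the 12 libraries. The log2 CPM of Ctsb and Ctsl had a Pearson r of 0.92, Ctsb and Ctsd 0.88, Ctsc and Ctsd 0.84 and Ctsc and Ctss 0.67. Ctsh ran opposite to Ctsc with an r of -0.88, and Ctsa ran opposite to Ctss with -0.82. In the 11 libraries other than Tet2-/- IR replicate 3 the 6 values were, in the same order, 0.86, 0.92, 0.95, 0.66, -0.88 and -0.83. These points share the 4 groups and the library scaling, and they are given as a description. Among 12189 genes with a mean of at least 1 FPKM, those most like Ctsd were Cdc42se2 (0.987) and Plxna2 (0.984), those most like Ctsb were Steap2 (0.993) and Actr1a (0.984), and those most like Ctsl were Dhx32 (0.98) and Igsf11 (0.977). Ctss was most like Vsir (0.962) and Itgb2 (0.961), the latter encoding the shared beta chain of leukocyte integrins. Ctsc was most like Map3k3 (0.952) and Tspan8 (0.95), Ctsz most like Ccdc22 (0.946) and Trappc1 (0.944), and Ctsk most like Tbxa2r (0.93) and Bgn (0.926). Ctsa was most like H2-T23 (0.93) and Ndufa1 (0.922), and Ctsh most like Fdx1 (0.918) and Bap1 (0.911).

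Markers of neutrophils were higher in the Tet2-/- IR group, while most markers of macrophages and dendritic cells did not pass between genotypes. The summed FPKM of 12 neutrophil markers was 0.68 to 3.19 in the 6 baseline libraries, 4.14 to 9.52 in WT IR and 75.6 to 134 in Tet2-/- IR. Of these 12, 9 had enough counts to be tested in the comparisons that hold Tet2-/- IR, and 4 in those that do not. Markers tested only with that group passed the count filter through it, so their direction was largely set in advance. Of the 9, 7 were higher in Tet2-/- than in WT kidneys after IR. From baseline to IR in Tet2-/- kidneys 8 rose. The shares of all genes were 3.51% and 22.9%, and the counts are given as a description. Without Tet2-/- IR replicate 3 the counts were 6 of 9 and 8 of 10. S100a8 was at 1.77 to 3.29 FPKM in WT IR and 27.4 to 47.2 in Tet2-/- IR. Mpo and Elane were listed at 0 in all 3 WT IR libraries. The summed FPKM of 14 macrophage markers was 49.5 to 93.6 at baseline, 44.1 to 92.4 in WT IR, and 121 in replicate 1, 262 in replicate 2 and 73.9 in replicate 3 of Tet2-/- IR. The sums of lymphocyte, dendritic cell, thick ascending limb and distal tubule, collecting duct, endothelium and fibroblast markers were likewise highest in replicate 2 and lowest in replicate 3 of that group, as Ctss and Ctsc were. Of the 14 macrophage markers, 2 were higher and 1 was lower in Tet2-/- than in WT kidneys after IR, against 3.51% and 6.17% of all genes. Adgre1 did not pass and none was at 0. Without replicate 3 these counts were 1 and 0. Of 8 dendritic cell markers 0 passed between genotypes after IR, with or without replicate 3. With IR in Tet2-/- kidneys 4 of the 14 macrophage markers rose and 2 fell, against 22.9% and 20.3% of all genes, with the same counts without replicate 3. Cd14 (4.56), Itgam (3.5), Cd68 (3.46) and Fcgr3 (1.88) rose, while Mertk (-0.73) and Csf1r, a receptor that defines macrophages, fell (log2 fold change -2.69, SE 0.37, adjusted p = 0.00125). These genes other than Cd68 and Csf1r were named after their values were seen. The part of these cells in the levels of Ctsc and Ctss was not tested. In kidney tissue of mixed cells, a change in cell number and a change in RNA per cell cannot be told apart.

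Markers of the proximal tubule moved in the opposite direction from Ctsb, Ctsd and Ctsl. Of 12, 9 fell from baseline to IR in Tet2-/- kidneys, 1 did so in WT kidneys, and 6 were lower in Tet2-/- than in WT kidneys after IR, against 20.3%, 1.14% and 6.17% of all genes. The counts of 9 and 6 became 9 and 5 without Tet2-/- IR replicate 3. Slc34a1 was at 477 to 760 FPKM in WT IR and 188 to 228 in Tet2-/- IR. None of the 12 was at 0 in any library. The 7 osteoclast markers, read beside Ctsk, summed to 36.6 to 75.5 FPKM over all libraries. Of 5 tested, Calcr, the calcitonin receptor (2.36), and Mmp9 (4.31) rose and Acp5 (-0.81) fell with IR in Tet2-/- kidneys. Of all genes 22.9% rose and 20.3% fell there. Calcr was at 0.09 to 0.95 FPKM over all libraries. Mmp9 was named after its value was seen, and all 3 passed without replicate 3. Adipocyte markers set Tet2-/- IR replicate 3 apart, with Adipoq at 10.01 FPKM against 0.04 and 0.003 in replicates 1 and 2, and Adipoq was listed at 0 in some libraries of WT IR and Tet2-/- baseline. The part of these cells in the values of replicate 3 was not tested.

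**Figure D4:**
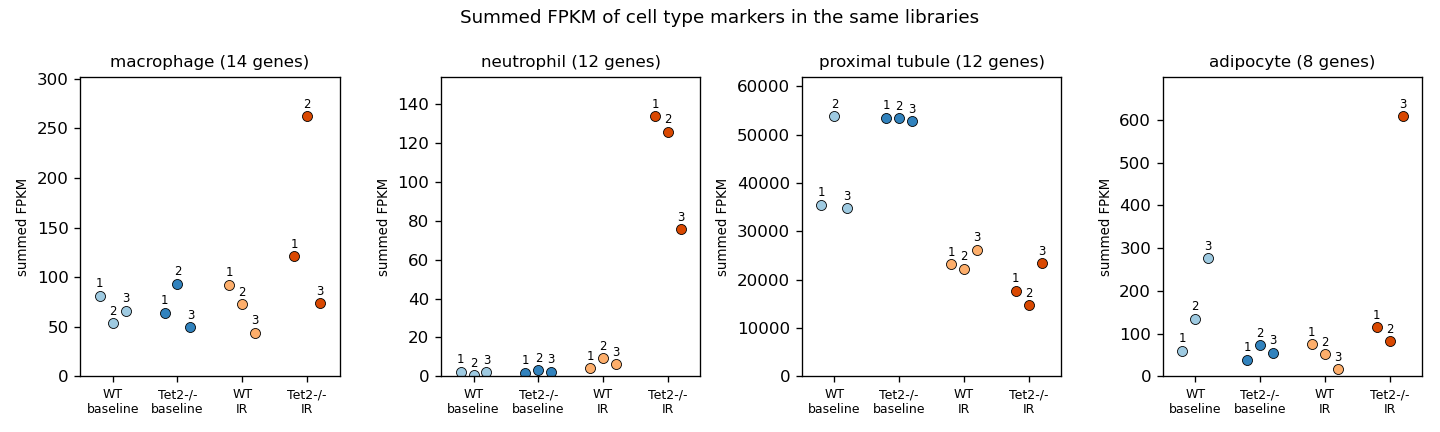
Summed FPKM (vertical axes, linear, from 0) of macrophage, neutrophil, proximal tubule and adipocyte markers in each library, with the replicate number above each point. The neutrophil sum was at most 9.52 outside the Tet2-/- IR group and at least 75.6 within it, while the adipocyte sum of 608 belonged to Tet2-/- IR replicate 3.

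Of 14 listed inhibitors of cysteine cathepsins, 8 could be tested after IR. Of these 8 inhibitor genes tested between genotypes after IR, 4 were higher in Tet2-/- kidneys and 0 lower, against 3.51% and 6.17% of all genes, with a median log2 fold change of 1.5 against 0.04 over all genes. Without Tet2-/- IR replicate 3, 3 of 8 were higher, with a median of 1.07. Cst3 (-0.04), Kng1 (-0.43) and Kng2 (-0.89), named after their values were seen, had negative values that did not pass. Ctla2a, which resembles the propeptide of cysteine cathepsins, was at 3.22 ± 1.47 FPKM in WT IR and 17.4 ± 6.32 in Tet2-/- IR (SD, n = 3), a log2 fold change of 2.38 (SE 0.42, adjusted p = 0.0216). Stfa2l1, a stefin, had a value of 5.73 (SE 0.69, adjusted p = 0.0112), at a mean of 0.03 FPKM in WT IR and 1.97 ± 0.42 in Tet2-/- IR. Stfa2l1 could be tested only in the comparisons that hold Tet2-/- IR. It thus entered the inhibitor counts and medians through the group where it was high, and its direction there was largely set by the filter. The other 2 were Cst6 (3.85, adjusted p = 0.0127) and Ctla2b (2.12, adjusted p = 0.0363), which did not pass without replicate 3 (1.76, adjusted p = 0.0758), both named after their values were seen. Cstb, the abundant stefin B, was the 1 of 7 inhibitors tested that rose with IR in WT kidneys, against 1.88% of all genes. It went from 78.3 ± 3.11 to 216 ± 50.5 FPKM there (log2 fold change 1.41, SE 0.20, adjusted p = 0.0208). In Tet2-/- kidneys it rose from 83.6 ± 6.10 to 421 ± 185 FPKM (2.10, SE 0.33, adjusted p = 0.00209). There 5 of 8 inhibitors rose with IR and 1, Cst3, fell by 0.60 on the log2 scale (adjusted p = 0.0124), also named after its value was seen, against 22.9% and 20.3% of all genes. Without replicate 3 the counts were 5 and 1 of 9. In the interaction 2 of 9 were higher, Ctla2a (2.45, adjusted p = 0.0132) and Cst6 (4.52, adjusted p = 0.00395), against 3.78% of all genes, and both passed without replicate 3.

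Only 4 of 14 other cathepsin genes had enough counts to be tested. Ctsf, a cysteine cathepsin, fell with IR in Tet2-/- kidneys from 11.8 ± 0.44 to 4.59 ± 1.28 FPKM (log2 fold change -1.63, SE 0.20, adjusted p = 0.000774). After IR it was also lower than in WT kidneys (-1.02, SE 0.25, adjusted p = 0.0472), and without Tet2-/- IR replicate 3 this did not pass (-0.85, adjusted p = 0.0828). Ctse, an aspartic protease of endosomes, rose in the same libraries from 0.37 to 1.36 FPKM (1.65, SE 0.29, adjusted p = 0.00341), but WT kidneys held 1.49 FPKM at baseline.

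Among the remaining lysosomal hydrolases more genes fell than rose in Tet2-/- kidneys. Of 40 tested, 0 were higher and 7 lower in Tet2-/- than in WT kidneys after IR, against 3.51% and 6.17% of all genes, with a median log2 fold change of -0.33 against 0.04 over all genes. The number lower was 5 without Tet2-/- IR replicate 3. Acp5, an acid phosphatase that is also an osteoclast marker, was at 60.2 ± 6.51 FPKM in WT IR and 31.0 ± 4.80 in Tet2-/- IR (log2 fold change -1.06, SE 0.18, adjusted p = 0.0201). From baseline to IR in Tet2-/- kidneys 14 of 40 fell and 5 rose, against 20.3% and 22.9% of all genes, and without replicate 3 the counts were 16 and 4. Dpp7, a peptidase that releases dipeptides from the ends of peptides, was among those that fell (-1.42, SE 0.30, adjusted p = 0.00731). Among those that rose were Lgmn (0.95), Lipa (0.87), Gla (0.83) and Gusb (0.44), named after their values were seen. Without replicate 3 Lgmn did not pass (0.55, adjusted p = 0.0667). Lgmn encodes legumain, which cleaves the single-chain forms of Ctsb, Ctsh and Ctsl. In WT kidneys 0 of 40 passed with IR in either direction, against 1.88% higher and 1.14% lower of all genes.

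The counts in the remaining lists stand against these shares of all genes. With IR, 22.9% rose and 20.3% fell in Tet2-/- kidneys, and 1.88% rose and 1.14% fell in WT kidneys. Between genotypes after IR, 3.51% were higher and 6.17% lower. Of 16 genes that sort enzymes to the lysosome, 0 passed between genotypes after IR, and 5 rose and 1 fell with IR in Tet2-/- kidneys, with Scarb2, the receptor of beta-glucocerebrosidase, rising from 6.93 to 20.2 FPKM (log2 fold change 1.30, SE 0.19, adjusted p = 0.00147). Scarb2 also rose in WT kidneys (0.69, SE 0.11, adjusted p = 0.0271), where it was the 1 of 16 that passed, and its interaction did not pass (0.65, adjusted p = 0.0971). Without Tet2-/- IR replicate 3, 1 was lower between genotypes, and 4 rose and 1 fell. Of 24 membrane genes, 3 rose with IR in Tet2-/- kidneys, among them Cd68, a membrane glycoprotein abundant in macrophages, from 1.22 to 16.3 FPKM (3.46, SE 0.24, adjusted p = 0.000121). Cd68 was the only one of the 24 to rise in WT kidneys, from 1.48 to 11.3 FPKM (2.88, SE 0.28, adjusted p = 0.00842), and 1 of 24 fell in Tet2-/- kidneys. Without replicate 3, 4 rose and 1 fell. Hgsnat, a heparan sulfate acetyltransferase, rose in Tet2-/- kidneys (1.04, SE 0.17, adjusted p = 0.00279). Between genotypes after IR 1 of 24 was higher, Hgsnat (0.73, adjusted p = 0.0479), and 2 were lower, Cd164 (-0.70) and Slc11a2 (-0.79), the last pair named after their values were seen. Without replicate 3 these counts were 0 and 2. Of 23 subunits of the vacuolar ATPase, which acidifies the lysosome, 2 rose and 4 fell in Tet2-/- kidneys, the last with Atp6v0e2 (-1.36, adjusted p = 0.000431) and Atp6v1c2 (-1.14, adjusted p = 0.00406). After IR 1 of the 23 was higher and 1 lower in Tet2-/- than in WT kidneys. Without replicate 3, 1 rose and 6 fell in Tet2-/- kidneys, and 0 of 23 passed between genotypes.

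Of 18 genes of the MiT/TFE transcription factors and of the mTORC1 complexes that hold them at the lysosome, 4 rose and 6 fell with IR in Tet2-/- kidneys (3 and 6 without replicate 3), and 0 passed in WT kidneys. Tfe3, a MiT/TFE factor named after its value was seen, rose by 0.71 on the log2 scale (adjusted p = 0.00212). The Ragulator subunit Lamtor5 fell from 96.9 ± 0.59 to 44.8 ± 5.33 FPKM (-1.37, SE 0.13, adjusted p = 0.00029) and was also the 1 gene of the list that differed between genotypes after IR (-1.18, SE 0.18, adjusted p = 0.0159), where 2 were lower without replicate 3. Of 11 class II antigen processing genes, the pathway of Ctss, 4 fell with IR in Tet2-/- kidneys and 0 rose, and 0 passed in the 2 genotype comparisons. Without replicate 3, 5 fell and 0 passed between genotypes after IR. H2-Aa fell from 44.7 ± 24.4 to 15.5 ± 6.64 FPKM (-1.81, SE 0.41, adjusted p = 0.0107). The 7 genes of tubular injury all rose in Tet2-/- kidneys, with or without replicate 3, and 5 rose in WT kidneys, against 1.88% of all genes there. Between genotypes after IR 0 of the 7 passed, with or without replicate 3. Lcn2, a lipocalin of injured tubules, was at 236 ± 212 FPKM in WT IR and 1560 ± 566 in Tet2-/- IR (log2 fold change 2.64, adjusted p = 0.0502), and its IR effect differed between genotypes (interaction 2.99, SE 0.83, adjusted p = 0.0463).

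MiT/TFE factors, among them Tfeb and Tfe3, are known to bind the palindrome CACGTG, best with T before and A after it, in promoters of lysosomal genes. The letters CACGTG were therefore searched on both strands in the 300 bases from 250 before to 50 after the start of each deposited transcript, in the mm9 genome sequence. They were found in 4 of 9 cathepsin windows, Ctsa, Ctsb, Ctsd and Ctsl, against 9.23% of 16718 promoters of genes in the interaction test. The 7-letter form TCACGTG was in 3 of 9, against 5.31%, and the 8-letter TCACGTGA, which contains both shorter forms, was in the same 3, Ctsa, Ctsb and Ctsd, against 1.57%. The windows of Ctsc, Ctsh, Ctsk, Ctss and Ctsz held none of these. A match of letters says nothing of binding. The 4 windows that hold a match are shown. CACGTG is in capitals, at 55 and 202 bases before the start in Ctsd (chr7:149573726-149574025, minus strand), 20 before in Ctsb (chr14:63741049-63741348, plus strand), 236 before in Ctsl (chr13:64471779-64472078, minus strand), and 12 before and 5 after in Ctsa (chr2:164659023-164659322, plus strand). The deposited starts of these 4 genes are not starts in the annotation used here, so the place of these windows is uncertain.
Ctsd: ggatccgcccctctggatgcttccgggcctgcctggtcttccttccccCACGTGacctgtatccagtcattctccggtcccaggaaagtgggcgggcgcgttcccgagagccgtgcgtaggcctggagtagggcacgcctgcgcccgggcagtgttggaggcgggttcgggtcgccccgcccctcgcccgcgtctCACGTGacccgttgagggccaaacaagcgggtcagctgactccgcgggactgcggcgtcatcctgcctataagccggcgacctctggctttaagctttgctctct
Ctsb: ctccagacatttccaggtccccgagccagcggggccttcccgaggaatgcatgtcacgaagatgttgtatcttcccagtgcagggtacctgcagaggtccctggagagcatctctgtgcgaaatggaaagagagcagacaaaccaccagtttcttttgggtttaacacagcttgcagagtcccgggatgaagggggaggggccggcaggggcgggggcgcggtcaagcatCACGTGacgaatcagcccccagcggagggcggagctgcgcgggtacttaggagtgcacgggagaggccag
Ctsl: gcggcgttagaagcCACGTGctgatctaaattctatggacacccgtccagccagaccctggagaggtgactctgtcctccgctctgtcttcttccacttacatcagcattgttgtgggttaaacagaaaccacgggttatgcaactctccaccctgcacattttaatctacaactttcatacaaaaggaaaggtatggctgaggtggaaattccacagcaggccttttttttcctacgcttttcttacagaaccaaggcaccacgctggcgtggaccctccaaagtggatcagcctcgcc
Ctsa: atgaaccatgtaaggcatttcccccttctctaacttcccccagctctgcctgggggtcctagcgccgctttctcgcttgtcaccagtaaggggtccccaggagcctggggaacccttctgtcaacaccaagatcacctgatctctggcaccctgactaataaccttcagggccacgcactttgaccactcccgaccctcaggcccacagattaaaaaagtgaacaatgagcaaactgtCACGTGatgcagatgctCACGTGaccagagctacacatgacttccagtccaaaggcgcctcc
All windows are written 5′ to 3′ on the strand of the gene. Of the 4 genes with a match, 3 rose and 1 fell with IR in Tet2-/- kidneys, and Ctsc rose with no match in its window.

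**Figure D5:**
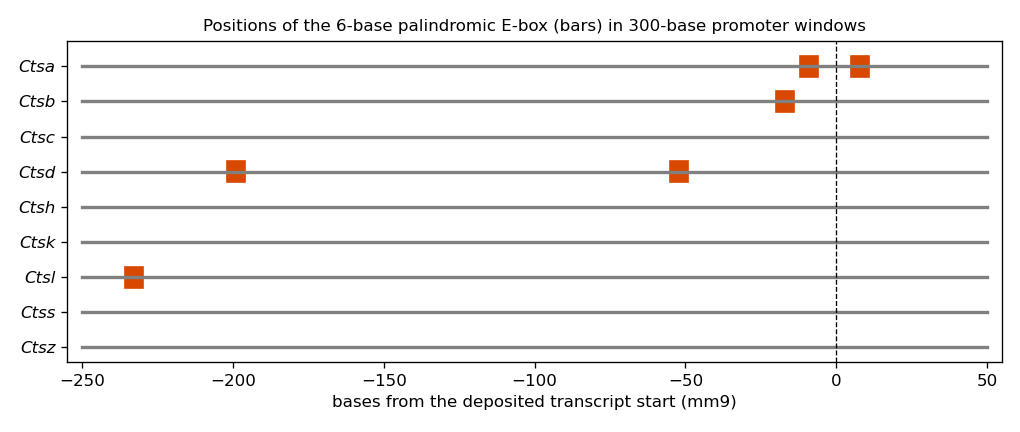
Position of each CACGTG match (bars) in the 300-base windows of the 9 cathepsins, in bases from the deposited transcript start (dashed line). Matches lie in 4 of the 9 windows, from 236 bases before the start in Ctsl to 5 after it in Ctsa.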

How the data were processed

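RNA-seq libraries of 12 kidney samples were analysed, and the study's methods do not say which part of each kidney was taken. According to the study's methods and the labels, the authors used STAR for alignment to mm9 and HOMER to count reads per RefSeq transcript. The authors deposited these expected counts, which are not normalized (38.7% of values are not whole), and the FPKM of the same transcripts, that is counts divided by transcript length and library depth. Versions and the strand setting are not given in the sources used here. The 34600 transcripts name 24421 symbols, of which 5569 have more than 1 transcript, and the transcript with the highest total over all libraries was used.

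Counts were rounded, scaled by TMM, filtered with edgeR's filterByExpr and tested with edgeR 4.0.16 (R 4.3.3) by the quasi-likelihood test, with Benjamini-Hochberg adjustment over all genes tested. This gave every adjusted p not credited to another tool. Each comparison used its own 6 libraries, and the interaction used all 12. With 3 libraries against 3, an exact permutation test of a single value cannot go below p = 0.1. Alternatives were DESeq2 1.42.0, limma 3.58.1 on log2(FPKM + 1) and log2(FPKM + 0.1), other scalings and filters, all 12 libraries in a single fit, summed transcripts, the replicate number as a block, and each library left out, for the lists only Tet2-/- IR replicate 3, added after seeing the data. The tests were also run on simulated counts, with an outcome that is not reported here.

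The members and the 9 pathway and 13 marker lists were chosen with earlier results of these data known. The text names all members, Tet2, the first 2 genes of each marker list as its defining markers, at most 2 genes per pathway list, comparison and direction among those called with a mean of at least 1 FPKM, and the 2 genes most like each member by Pearson r of log2(CPM + 1). Genes outside this rule overlap a member or were named after their values were seen. Some genes that this rule names are not reported here. Same-numbered WT libraries, baseline against IR, deviated together (r of 0.379, 0.339 and 0.364), a pairing taken from these correlations only, since the mice differ. In Tet2-/- libraries the values were 0.088, 0.318 and 0.277, and the genotype comparisons gave -0.205 to 0.375. Promoters were read from the NCBI mouse genome of build 37, the sequence of mm9, and near copies were sought with BLAST 2.17.0, which found none of 100 bases at 95% identity except 5 short ones for Ctsa.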

Additional observations from a re-analysis of the deposited data

Results flagged for a closer look

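By the interaction test of edgeR (adjusted p under 0.05), the IR effect differed between the genotypes for Ctsd (log2 difference 1.43, adjusted p = 0.0291). It also differed for genes of the lists, of which 9 are given here and others, such as Cst6, are not. Of these 9, those higher in Tet2-/- were the inhibitor Ctla2a (2.45), Gnptab (0.75), which builds the mannose 6-phosphate tag, Hgsnat (0.81), Lcn2 (2.99) and Krt18 (1.89). Without Tet2-/- IR replicate 3, Gnptab (0.67, adjusted p = 0.0711) and Krt18 (1.91, adjusted p = 0.064) did not pass. Lower were Acp5 (-1.30), Gm2a (-1.23), Lamtor5 (-1.45) and Lamtor2 (-0.83). For Ctsd both genotypes had all IR libraries above all baseline libraries, although the difference within WT kidneys did not pass (edgeR, adjusted p = 0.142). For Gm2a the mean was 55.4 and 65.9 FPKM in WT kidneys at baseline and after IR, and 63.0 and 36.0 in Tet2-/- kidneys.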

How the results depend on the processing

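The number of cathepsins called higher after IR between genotypes, 1, became 0 with limma on log2(FPKM + 1) and log2(FPKM + 0.1) and ran from 0 to 2 with a library left out. For IR in Tet2-/- kidneys the counts ran from 2 to 3 higher and 0 to 1 lower with a library left out, and 1 was lower by adjusted p alone. In the interaction the count ran from 0 to 1. Under the replicate block, which the design does not require because the mice differ, 5 cathepsins were called higher for IR in Tet2-/- kidneys (Ctss joined with 1.25, adjusted p = 0.0106), and by adjusted p alone 2 were lower in place of 1 (Ctsh joined Ctsa with -0.74, adjusted p = 0.0469). The block changed no cathepsin's call in WT kidneys or between genotypes. Of 765 log2 fold changes recomputed, 698 kept their direction and side of the threshold. The reversed values were all of cathepsins that had not passed. With a scaling by library sizes alone, Ctsl at baseline became -0.01 and Ctsk in the interaction 0.079. With limma, Ctsl at baseline became -0.032 under both pseudocounts, Ctsh at baseline -0.024 and -0.025, and Ctsk in the interaction 0.061 and 0.135. With a library left out, values at baseline ran from -0.158 to 0.072 for Ctsb, -0.42 to 0.19 for Ctsc, -0.14 to 0.49 for Ctsk, -0.046 to 0.155 for Ctsl and -0.86 to 0.21 for Ctss. Between genotypes after IR they ran from -0.58 to 0.22 for Ctsh, -0.21 to 0.53 for Ctsk and -0.026 to 0.664 for Ctsz. For IR in WT kidneys they ran from -0.98 to 0.10 for Ctss and -0.021 to 0.288 for Ctsz, and in Tet2-/- kidneys from -0.038 to 0.649 for Ctsz. In the interaction they ran from -0.61 to 0.12 for Ctsh, -0.43 to 0.34 for Ctsk and -0.17 to 0.51 for Ctsz. The cause of these changes was not tested.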
